A study of Homo sapiens with 9 samples.

Results

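The 10 genes described here encode transcription factors and regulators that cells switch on early after a stimulus, together with MYC and its partner. They are the AP-1 subunits FOS, FOSL2, JUN, JUNB and JUND, the zinc finger factor EGR1, the immediate early response genes IER2 and IER3, MYC, and MAX. They were taken by name, as the entries whose gene symbol equals one of these, and all 10 were found among the 25142 entries of the deposited expression table. LNCaP, a human prostate cancer cell line that depends on the androgen receptor, was kept without steroids for 24 h in medium with 5% charcoal-treated serum and then treated for 18 h. The groups were 1 nM of the synthetic androgen R1881 with 10 µM MEL-6 (a test compound for which the labels give a code name only), then 1 nM R1881 alone, and vehicle (DMSO). Each group had 3 libraries of polyadenylated RNA, labelled as biological replicates, and the study asked whether the androgen receptor is the target of MEL-6. All groups shared the cell line and the steroid-free serum, and no group received MEL-6 without R1881.

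Immediate early genes are transcribed within minutes of a signal, without new protein synthesis, mostly through MAP kinases acting on factors such as SRF and its ELK partners, and their RNA is short-lived. AP-1 is a dimer of a JUN protein with a second JUN, a FOS protein or an ATF protein, and its makeup sets which sites it binds. MYC binds DNA as a dimer with MAX and raises transcription of genes for ribosome production and metabolism, while MXD, MXI1 and MNT proteins compete for MAX. Samples at 18 h hold the level after long exposure, not the first wave.

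Levels are in RPKM, that is, reads divided by gene length and by the size of the library. Estimated depth, from the steps between low values, was 6.04 to 10.9 M (mega) reads in R1881 with MEL-6, 11.8 to 16.9 M in R1881 and 6.54 to 10.0 M in vehicle, so the R1881 libraries were the deepest, and the part of depth in the results was not tested. The libraries carried the markers of luminal prostate cells, with 8 of 8 at 0.5 RPKM or more in all 9 libraries, while all 3 basal and all 3 leukocyte markers stayed under 0.5 RPKM, with KRT5, TP63, PTPRC and CD3E listed at 0 and KRT14 and CD14 reaching 0.347 and 0.179 RPKM. Of 5 fibroblast markers 4 stayed under 0.5 RPKM everywhere, all but COL1A1, and all 5 summed to 3.27 to 3.72 RPKM in R1881 with MEL-6, 2.19 to 2.26 RPKM in R1881 and 2.59 to 3.23 RPKM in vehicle. Of 3 endothelial markers PECAM1 and CDH5 were listed at 0, and VWF averaged 0.699 RPKM in R1881 with MEL-6, 0.423 RPKM in R1881 and 1.04 RPKM in vehicle. Of 3 neuroendocrine markers INSM1 was listed at 0, CHGA reached 0.0659 RPKM, and SYP averaged 0.803 RPKM in R1881 with MEL-6, 0.950 RPKM in R1881 and 0.734 RPKM in vehicle. The part of these markers in the results was not tested. A test was made for the 13295 entries that reached 0.5 RPKM in 3 or more libraries. Of the 10 genes, 8 passed this filter in all 9 libraries and were tested, and FOS and EGR1 did not pass it. Log2 changes, given ± SE, were fitted to log2(RPKM + 0.5), so changes of low genes come out too small. A gene was called changed at a Benjamini-Hochberg adjusted p from limma under 0.05. The labels call the replicates biological but do not say whether they came from separate cultures. The p-values therefore measure the spread between these libraries. In bulk RNA, fewer cells expressing a gene and less of its RNA per cell cannot be told apart.

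Under R1881 against vehicle, 4 of the 8 tested genes were called, FOSL2 and JUND higher and MYC and IER2 lower, while 45.8% of all tested genes were called. With MEL-6 added to R1881, against R1881 alone, 6 of 8 were called, JUN, JUND, IER2, IER3 and MYC higher and FOSL2 lower, beside 52% of all tested genes. With both agents against vehicle, 2 of 8 were called, JUN and JUND, both higher, beside 38% of all tested genes. By direction, 14.5% of all tested genes were called higher and 31.3% lower under R1881, 31.4% and 20.6% with MEL-6 against R1881, and 17.2% and 20.8% with MEL-6 against vehicle. The libraries of the groups compared did not overlap at all for 4 of the 8 genes under R1881 against vehicle (57.9% of all tested genes), for 5 of 8 with MEL-6 against R1881 (59.8%) and for 3 of 8 with MEL-6 against vehicle (46.5%). The first and last comparison share the vehicle libraries, the first 2 share the R1881 libraries, and the last 2 share the libraries of R1881 with MEL-6, so their values are given side by side and not as independent of each other. The median log2 change of the 8 genes was 0.43 with MEL-6 against R1881, where the median of all tested genes was 0.07, and -0.03 with R1881 against vehicle, where it was -0.12. Median-of-ratios scaling moved that last median of all tested genes to -0.0095. After this scaling the changes under R1881 against vehicle were 1.32 for FOSL2, 0.35 for JUND, -0.32 for IER2 and -0.84 for MYC, and all 4 calls stayed. With it, 20.9% of all tested genes were called higher and 19.1% lower in that comparison, and 24.6% and 28.5% with MEL-6 against R1881. The call of IER3 with MEL-6 against R1881 was lost after this scaling (limma adjusted p = 0.0521). A call of JUNB as higher with MEL-6 against vehicle was gained (limma adjusted p = 0.0417), where 18.5% of all tested genes were called higher and 18.8% lower.

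**Figure D1:**
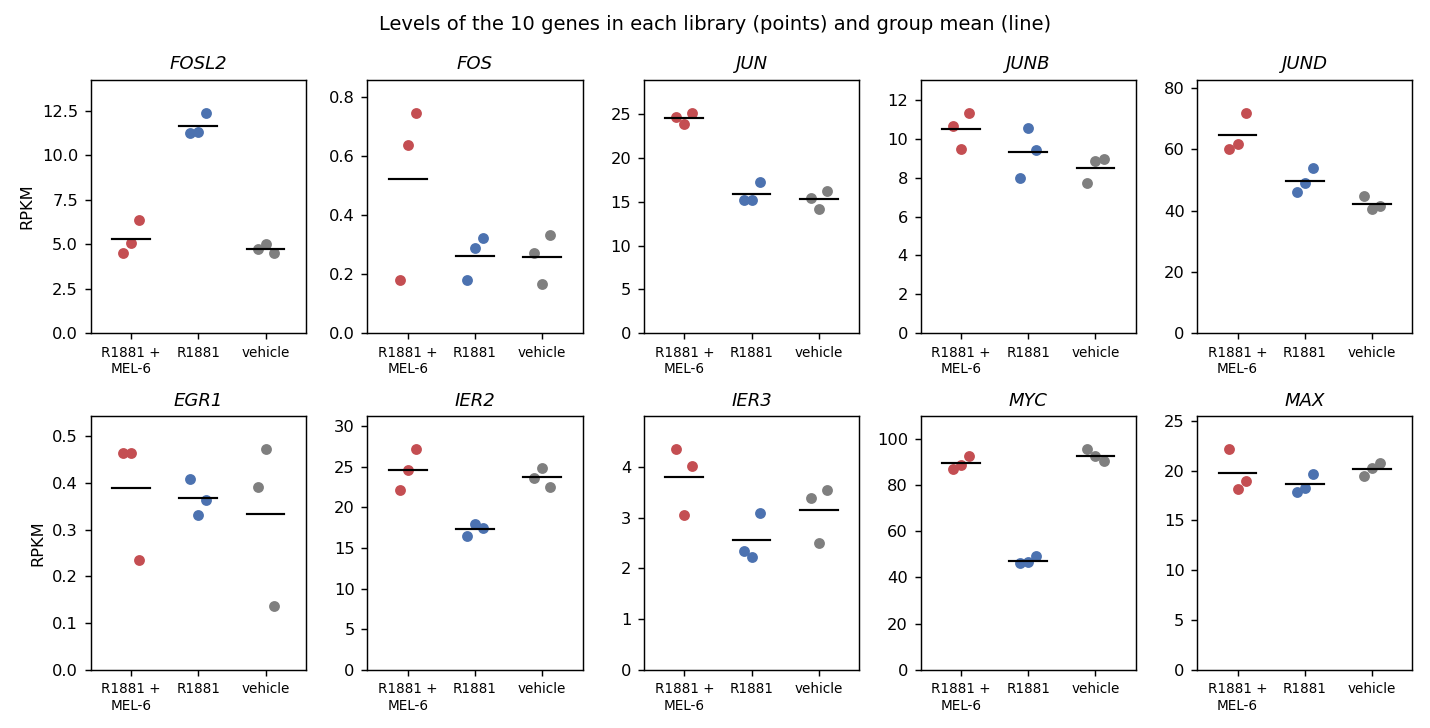
RPKM of the 10 genes in every library, a panel per gene on its own linear axis from 0, with R1881 with MEL-6 left, R1881 in the middle and vehicle right; points are libraries and lines are group means. MYC had 87.1 to 92.6 RPKM in R1881 with MEL-6, 46.2 to 49.1 RPKM in R1881 and 90.2 to 95.4 RPKM in vehicle, and FOSL2 showed the opposite order, highest in R1881.

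FOSL2 (chromosome 2, 28615779 to 28637516 on GRCh37) encodes Fra-2, a FOS-family subunit of AP-1. It had 4.48, 5.07 and 6.34 RPKM in R1881 with MEL-6, 11.3, 11.3 and 12.4 RPKM in R1881, and 4.73, 5.0 and 4.51 RPKM in vehicle. The 3 R1881 libraries lay above all 6 others, and the other groups overlapped. FOSL2 rose under R1881 against vehicle by 1.21 ± 0.107 on the log2 scale (limma adjusted p = 8.18e-06). It fell by 1.08 ± 0.107 with MEL-6 against R1881 (adjusted p = 1.63e-05). Between R1881 with MEL-6 and vehicle the log2 difference was 0.13 (adjusted p = 0.364), with a 95% interval from -0.106 to 0.370. Of all tested genes, 3.14% changed by more than FOSL2 in either direction under R1881 against vehicle. The uncharacterised entry FLJ31356 overlaps FOSL2 and averaged at most 0.0465 RPKM in any group.

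FOS (chromosome 14, 75745481 to 75748937), the prototype immediate early gene, was near the limit of detection 18 h after treatment. It had 0.181, 0.639 and 0.747 RPKM in R1881 with MEL-6, 0.179, 0.287 and 0.323 RPKM in R1881, and 0.272, 0.167 and 0.333 RPKM in vehicle. The 2 highest values were in R1881 with MEL-6, but the first MEL-6 library was among the lowest, so the groups overlapped. From gene length and depth these values correspond to between 3.54 and 23.0 reads, an estimate that depends on the length of the authors' gene model. In a fit without the filter, the log2 difference was 0.38 with MEL-6 against R1881 (limma adjusted p = 0.21), 0.39 against vehicle (adjusted p = 0.234) and 0.01 between R1881 and vehicle.

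The stretches before the start of transcription are shown for the 4 called members that have an AP-1 or CRE motif there, so that the motifs can be seen beside the values. RefSeq's table on GRCh38.p14 held such windows, 250 bases before to 50 after the start, for 8 of the 10 genes. MYC and IER3 had no window and were not searched for any motif. Capitals mark TGACG, part of the CRE that ATF and CREB proteins bind, on either strand (CGTCA when read on the other), TGANTCA (the AP-1 site) in FOSL2, TGACATCA, a variant of that site, in JUN, and TGACGTCA (the full CRE) in JUND. The windows are chr2:28392608-28392907 (plus strand) for FOSL2, chr1:58783998-58784297 (minus) for JUN, chr19:18281573-18281872 (minus) for JUND and chr19:13150161-13150460 (plus) for IER2.
FOSL2: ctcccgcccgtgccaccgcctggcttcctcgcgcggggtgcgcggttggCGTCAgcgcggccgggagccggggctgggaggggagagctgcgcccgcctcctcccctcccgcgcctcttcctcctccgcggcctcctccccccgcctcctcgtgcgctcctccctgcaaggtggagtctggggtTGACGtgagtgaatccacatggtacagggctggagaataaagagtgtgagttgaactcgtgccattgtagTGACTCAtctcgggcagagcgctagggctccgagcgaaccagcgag
JUN: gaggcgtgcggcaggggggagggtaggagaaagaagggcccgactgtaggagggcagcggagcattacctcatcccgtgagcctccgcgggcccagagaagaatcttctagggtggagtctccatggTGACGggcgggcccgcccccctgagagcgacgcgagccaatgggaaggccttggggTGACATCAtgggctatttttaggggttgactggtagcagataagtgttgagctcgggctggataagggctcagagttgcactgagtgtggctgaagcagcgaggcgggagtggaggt
JUND: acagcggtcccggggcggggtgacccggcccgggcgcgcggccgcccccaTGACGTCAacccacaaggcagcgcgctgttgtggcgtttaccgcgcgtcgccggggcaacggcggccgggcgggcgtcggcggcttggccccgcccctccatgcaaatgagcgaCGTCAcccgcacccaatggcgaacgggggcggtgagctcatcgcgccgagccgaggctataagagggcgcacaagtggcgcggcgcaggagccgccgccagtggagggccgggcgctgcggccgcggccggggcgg
IER2: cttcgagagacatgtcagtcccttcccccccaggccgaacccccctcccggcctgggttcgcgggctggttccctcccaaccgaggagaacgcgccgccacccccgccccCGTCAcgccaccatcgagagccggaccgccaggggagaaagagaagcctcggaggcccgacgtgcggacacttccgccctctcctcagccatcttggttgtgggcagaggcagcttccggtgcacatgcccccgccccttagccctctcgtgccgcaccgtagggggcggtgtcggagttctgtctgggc
Searched on both strands, TGACG occurred in 24.6% of the 35116 windows of the table, TGANTCA in 7.71%, TGACATCA in 2.61% and TGACGTCA in 1.85%. Among the windows of the members, TGACG was in 7 of 8 genes, all but MAX, and the 2 matches inside the CRE of JUND overlap that motif. TGANTCA was in FOSL2 alone, TGACATCA in JUN alone and TGACGTCA in JUND alone. The CArG box, which SRF binds, was in EGR1 alone among these windows, with 2 matches, and in 1.29% of all windows. Sequence farther from the start was not searched. GCGNGGGCG, the site of EGR proteins, was in EGR1 itself and in 9.43% of all windows. No member window held CACGTG, the E-box of MYC (7.26% of all windows), or the full palindromic androgen response element (0.00285%), or AGAACA, its left arm (14.8%). A match is a description of these letters and was not tested for binding.

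JUND (chromosome 19, 18390563 to 18392432) was the most abundant JUN-family subunit per length, and all 3 of its groups stood apart. It had 60.0, 61.7 and 71.9 RPKM in R1881 with MEL-6, 46.0, 49.1 and 53.9 RPKM in R1881, and 44.8, 40.5 and 41.6 RPKM in vehicle. No 2 groups overlapped. JUND rose by 0.37 ± 0.081 with MEL-6 against R1881 (limma adjusted p = 0.00299) and by 0.60 ± 0.081 against vehicle (adjusted p = 0.000278). The rise under R1881 against vehicle was 0.23 ± 0.081 (adjusted p = 0.0405). That last call was lost in 7 of 18 alternatives, among them fits without R1881 replicate 2 (adjusted p = 0.084) or 3 (0.15), vehicle replicate 2 (0.121) or 3 (0.0985), or MEL-6 replicate 2 (0.0508), with no filter (0.0679) and with no intensity trend (0.0665).

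JUN (chromosome 1, 59246463 to 59249785), whose protein c-Jun is activated by JUN N-terminal kinases and binds its own promoter, was highest in the MEL-6 libraries. It had 24.7, 23.9 and 25.2 RPKM in R1881 with MEL-6, 15.2, 15.3 and 17.3 RPKM in R1881, and 15.5, 14.2 and 16.2 RPKM in vehicle. All 3 MEL-6 libraries lay above all 6 others, which overlapped. JUN rose by 0.62 ± 0.069 with MEL-6 against R1881 (limma adjusted p = 3.9e-05) and by 0.67 ± 0.069 against vehicle (adjusted p = 4.45e-05). For R1881 against vehicle the log2 difference was 0.05 (adjusted p = 0.563), with an interval from -0.100 to 0.206.

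JUNB (chromosome 19, 12902310 to 12904125), a JUN-family subunit that can hold back c-Jun activity, varied less between groups. It had 10.7, 9.49 and 11.4 RPKM in R1881 with MEL-6, 7.97, 10.6 and 9.42 RPKM in R1881, and 7.71, 8.89 and 8.97 RPKM in vehicle. The MEL-6 libraries did not overlap with vehicle but did with R1881. The log2 difference was 0.17 with MEL-6 against R1881 (limma adjusted p = 0.203), 0.29 against vehicle (adjusted p = 0.0557) and 0.12 for R1881 against vehicle (adjusted p = 0.399). That last value rested on single libraries, being 0.026 without R1881 replicate 2, 0.22 without R1881 replicate 1 and 0.050 without vehicle replicate 1, and it was 0.23 after median-of-ratios scaling, with no call in any alternative. The difference with MEL-6 against R1881 ran from 0.068 to 0.26 over the alternatives, also with no call. The difference from vehicle passed the threshold in 6 of 18 alternatives, among them without MEL-6 replicate 2 (adjusted p = 0.0426) and without R1881 replicate 1 (0.0355) or 2 (0.0452).

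Summed per length, the JUN-family transcripts averaged 99.7 ± 7.65 RPKM in R1881 with MEL-6, 74.9 ± 5.75 RPKM in R1881 and 66.1 ± 2.28 RPKM in vehicle (SD, n = 3 each). The FOS-family transcripts FOS, FOSB, FOSL1 and FOSL2 summed to 6.16 ± 1.28 RPKM in R1881 with MEL-6, 12.2 ± 0.618 RPKM in R1881 and 5.40 ± 0.166 RPKM in vehicle. JUN-family RNA exceeded FOS-family RNA in every library. The ratio of the sums was 16.5 ± 2.37 in R1881 with MEL-6, 6.13 ± 0.244 in R1881 and 12.3 ± 0.745 in vehicle, and no library of one group overlapped with another group. With 3 libraries against 3, the two-sided exact permutation test gave p = 0.1 for each of these differences in the ratio, the smallest it allows (0.12 after adjustment over 6 tests). FOSL2 made up 86.4% ± 2.77 of FOS-family RPKM in R1881 with MEL-6, 95.4% ± 0.479 in R1881 and 87.9% ± 1.85 in vehicle. JUND made up 64.7% ± 1.71 of JUN-family RPKM in R1881 with MEL-6, 66.3% ± 0.696 in R1881 and 63.9% ± 1.84 in vehicle, with overlapping groups. These are shares of RNA, and protein was not measured.

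**Figure D2:**
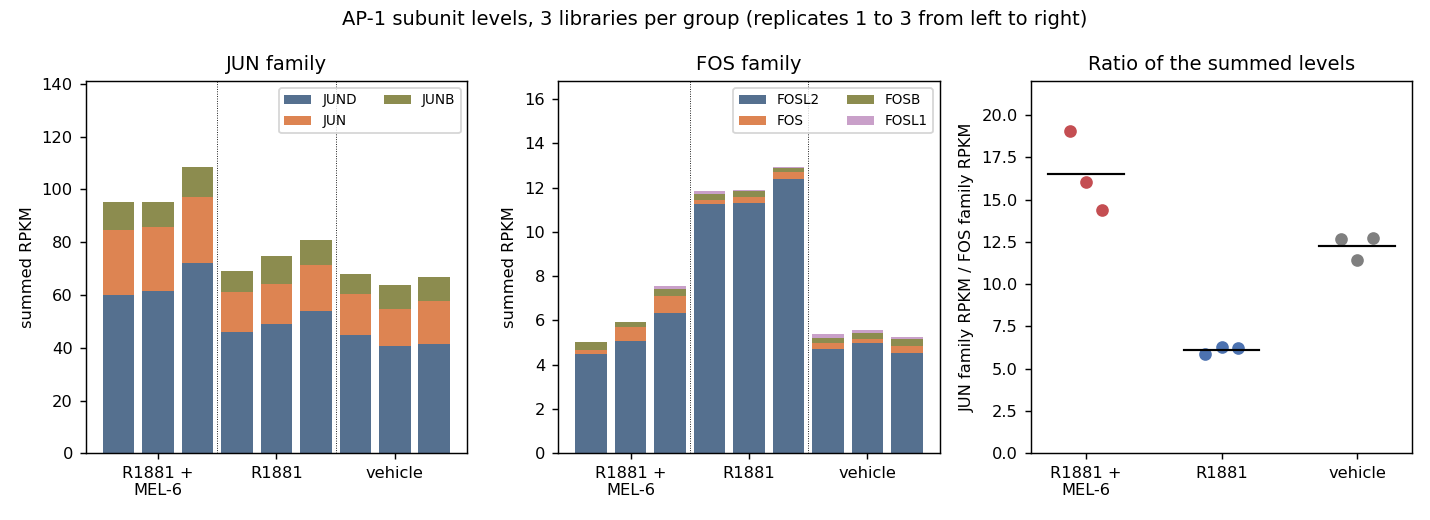
Summed RPKM of the JUN-family and FOS-family transcripts in each library, split by subunit, with R1881 with MEL-6 left, R1881 in the middle and vehicle right, and the ratio of the sums in the right panel (points are libraries, lines are means). JUND was the largest piece of the JUN family in all 9 libraries and FOSL2 of the FOS family, and the FOS-family sum was 11.8 to 12.9 RPKM in R1881, against 5.25 to 5.58 RPKM in vehicle.

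Of 9 other AP-1 subunits and dimer partners, 4 were expressed enough to test. With MEL-6 against R1881, 2 of these 4 rose and none fell, where 31.4% of all tested genes rose and 20.6% fell. ATF3, a stress-induced factor that pairs with JUN proteins, had 37.7 ± 1.70 RPKM in R1881 with MEL-6 and 14.1 ± 0.729 RPKM in R1881 (SD, n = 3 each), a log2 change of 1.39 ± 0.062 (limma adjusted p = 4.96e-08). JDP2, a repressor that also pairs with JUN proteins, had 5.77 ± 0.0679 RPKM in R1881 with MEL-6 and 1.84 ± 0.202 RPKM in R1881, a change of 1.42 ± 0.089 (adjusted p = 5.2e-07). ATF3 was also above vehicle by 1.52 ± 0.062 (adjusted p = 9.88e-08), where it averaged 12.8 RPKM. The other call against vehicle was ATF7, a CRE-binding factor, higher by 0.23 ± 0.060 (adjusted p = 0.0128, and 0.0511 without MEL-6 replicate 2). Among all tested genes 17.2% rose and 20.8% fell with MEL-6 against vehicle. Under R1881 against vehicle the single call was JDP2, lower by 1.23 on the log2 scale (adjusted p = 1.79e-06) and named after its values were seen. With median-of-ratios scaling 3 of the 4 were called higher in that comparison and 1 lower. The shares of all tested genes called higher and lower there were 14.5% and 31.3%, or 20.9% and 19.1% after this scaling. FOSB, FOSL1 and the BATF genes were too low to test.

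EGR1 (chromosome 5, 137801181 to 137805004), an SRF-driven zinc finger factor, was as low as FOS. It had 0.464, 0.465 and 0.236 RPKM in R1881 with MEL-6, 0.408, 0.332 and 0.364 RPKM in R1881, and 0.391, 0.472 and 0.137 RPKM in vehicle, and all groups overlapped. Its values fitted whole multiples of an inferred step for 1 read, which those of FOS did not. This gave 10, 18 and 8 reads in R1881 with MEL-6, 18, 14 and 22 reads in R1881 and 14, 11 and 4 reads in vehicle. From gene length and depth, EGR1 had between 3.52 and 19.4 reads a library, so both are estimates. In a fit without the filter, the log2 difference was 0.02 with MEL-6 against R1881 (limma adjusted p = 0.947), 0.10 against vehicle (adjusted p = 0.712) and 0.08 for R1881 against vehicle (adjusted p = 0.775). Of the 5 other EGR genes and EGR corepressors, EGR2, EGR3 and EGR4 averaged at most 0.0472 RPKM in any group. The 2 tested were the corepressors NAB1 and NAB2, named after their values were seen. NAB1 averaged 4.51 RPKM in R1881 with MEL-6, 2.31 RPKM in R1881 and 4.66 RPKM in vehicle, lower under R1881 by 0.87 (adjusted p = 1.52e-05) and higher with MEL-6 against R1881 by 0.83 (adjusted p = 1.86e-05). NAB2 averaged 3.70 RPKM in R1881 with MEL-6, 2.47 RPKM in R1881 and 2.56 RPKM in vehicle, higher with MEL-6 against R1881 by 0.50 (adjusted p = 0.00562) and against vehicle by 0.46 (adjusted p = 0.0133, and 0.0515 without vehicle replicate 2).

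IER2 (chromosome 19, 13261282 to 13265722) encodes a small nuclear protein induced early by growth factors. It had 22.1, 24.6 and 27.1 RPKM in R1881 with MEL-6, 16.5, 18.0 and 17.5 RPKM in R1881, and 23.7, 24.9 and 22.5 RPKM in vehicle. The R1881 libraries lay below all 6 others, which overlapped. IER2 fell by 0.44 ± 0.075 under R1881 against vehicle (limma adjusted p = 0.000847) and rose by 0.49 ± 0.075 with MEL-6 against R1881 (adjusted p = 0.000327). Between R1881 with MEL-6 and vehicle the log2 difference was 0.05 (adjusted p = 0.632), with an interval from -0.117 to 0.218.

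IER3 (chromosome 6, 30710976 to 30712327), also known as IEX-1, encodes a regulator of cell survival and of ERK signalling. It had 4.35, 3.06 and 4.03 RPKM in R1881 with MEL-6, 2.35, 2.22 and 3.10 RPKM in R1881, and 3.39, 2.50 and 3.54 RPKM in vehicle. The highest R1881 library lay above the lowest MEL-6 library, so these groups overlapped. IER3 rose by 0.50 ± 0.160 with MEL-6 against R1881 (limma adjusted p = 0.0239). The call was lost in 6 of 18 alternatives, without MEL-6 replicate 1 (adjusted p = 0.0763) or 3 (0.0649), without R1881 replicate 1 (0.0767) or 2 (0.0868), after median-of-ratios scaling (0.0521) and with no filter (0.053). The log2 difference was -0.25 for R1881 against vehicle (adjusted p = 0.223) and 0.24 for R1881 with MEL-6 against vehicle (adjusted p = 0.261).

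Other immediate early genes moved in both directions. Of 20 listed, 15 were tested, and 6 rose and 4 fell under R1881 against vehicle, with a median log2 change of 0.11. In that comparison 14.5% of all tested genes rose and 31.3% fell, with a median of -0.12. NR4A1, an orphan nuclear receptor, averaged 4.61 ± 0.881 RPKM in R1881 with MEL-6, 22.4 ± 0.674 RPKM in R1881 and 3.95 ± 0.385 RPKM in vehicle (SD, n = 3 each). KLF4, a zinc finger factor, averaged 2.59 ± 0.0549 RPKM in R1881 with MEL-6, 8.26 ± 0.487 RPKM in R1881 and 1.54 ± 0.215 RPKM in vehicle. These 2 rose under R1881 by 2.37 and 2.11 on the log2 scale (limma adjusted p = 1.11e-07 and 4.67e-08). The antiproliferative gene BTG2 averaged 23.3 ± 0.425 RPKM in R1881 with MEL-6, 10.4 ± 0.455 RPKM in R1881 and 18.5 ± 0.420 RPKM in vehicle. TRIB1, a pseudokinase, averaged 11.9 ± 0.777 RPKM in R1881 with MEL-6, 4.29 ± 0.481 RPKM in R1881 and 10.7 ± 0.0992 RPKM in vehicle. BTG2 fell by 0.80 (adjusted p = 8.45e-07) and TRIB1 fell by 1.23 (adjusted p = 8.76e-07) under R1881, as MYC and IER2 did. With MEL-6 against R1881, 6 of the 15 rose and 4 fell, with a median of 0.10. After median-of-ratios scaling 5 rose and 5 fell, with a median of -0.0046. After it, 24.6% of all tested genes rose and 28.5% fell, with a median of -0.017. Without this scaling 31.4% of all tested genes rose and 20.6% fell in that comparison, with a median of 0.07. There BTG2 and TRIB1 rose by 1.12 and 1.37 (adjusted p = 6.65e-08 and 3.61e-07), while NR4A1 fell by 2.18 (adjusted p = 2.13e-07) and KLF4 fell by 1.50 (adjusted p = 5.82e-07). Against vehicle, R1881 with MEL-6 had 7 of 15 higher and 2 lower, beside 17.2% and 20.8% of all tested genes. One of those higher was ZFP36L1, which encodes an RNA-decay factor, by 0.30 (adjusted p = 0.00399). The 2 lower were CYR61, a matricellular gene named after its values were seen, by 0.43 (adjusted p = 0.0115), and KLF10, a TGF-beta-induced factor, by 0.51 (adjusted p = 0.00371).

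ERK signalling is a main inducer of immediate early genes. Its feedback list held 13 genes, the ETS factors ETV4 and ETV5, which carry its output, and 11 that restrain ERK or its receptors. Of these, 8 were tested, ETV4 and ETV5 not among them, and 4 rose and 1 fell under R1881 against vehicle. Among all tested genes 14.5% rose and 31.3% fell in that comparison. ERRFI1, an inhibitor of the EGF receptor, averaged 17.3 ± 0.494 RPKM in R1881 with MEL-6, 167 ± 1.95 RPKM in R1881 and 11.3 ± 0.590 RPKM in vehicle (SD, n = 3 each). Its log2 changes were 3.84 ± 0.051 for R1881 against vehicle (limma adjusted p = 8.18e-12) and -3.24 ± 0.051 with MEL-6 against R1881 (adjusted p = 4.3e-11). With MEL-6 against vehicle ERRFI1 was higher by 0.60 ± 0.051 (adjusted p = 1.22e-05). The MAP kinase phosphatase gene DUSP4 averaged 5.46 ± 0.851 RPKM in R1881 with MEL-6, 9.70 ± 0.595 RPKM in R1881 and 3.56 ± 0.929 RPKM in vehicle. It rose under R1881 by 1.35 (adjusted p = 6.22e-05) and fell with MEL-6 against R1881 by 0.78 (adjusted p = 0.0019). With MEL-6 against vehicle DUSP4 was higher by 0.57 (adjusted p = 0.0166, lost in 3 of 18 alternatives). The single fall under R1881 was SPRY1, a Sprouty inhibitor named after its values were seen, by 0.43 (adjusted p = 0.0294, up to 0.109 in the 6 of 18 alternatives that lost the call). With MEL-6 against R1881, 2 of the 8 rose and 4 fell, beside 31.4% and 20.6% of all tested genes. Against vehicle 3 rose and none fell, beside 17.2% and 20.8% of all tested genes.

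The list of regulators upstream of immediate early genes held SRF cofactors, kinases of the MAP kinase cascades with the RSK kinases they activate, and the factor CREB1, and all 15 genes were tested. Under R1881 against vehicle 3 rose and 2 fell, or 6 and 1 after median-of-ratios scaling. The shares of all tested genes were 14.5% and 31.3%, or 20.9% and 19.1% after this scaling. ELK4, an SRF partner, averaged 12.8 ± 0.961 RPKM in R1881 with MEL-6, 30.9 ± 1.36 RPKM in R1881 and 12.6 ± 0.521 RPKM in vehicle (SD, n = 3 each). It rose under R1881 by 1.27 ± 0.066 (limma adjusted p = 1.53e-07) and fell with MEL-6 by 1.24 ± 0.066 (adjusted p = 1.89e-07). MAPK9, the JNK2 kinase that acts on c-Jun, averaged 16.3 RPKM in R1881 with MEL-6, 12.8 RPKM in R1881 and 16.4 RPKM in vehicle. It fell under R1881 by 0.35 (adjusted p = 0.000648) and rose with MEL-6 against R1881 by 0.34 (adjusted p = 0.000553). The other listed JNK gene, MAPK8, was not called in any comparison. It averaged 21.1 RPKM in R1881 with MEL-6, 19.3 RPKM in R1881 and 21.0 RPKM in vehicle. With MEL-6 against R1881, 4 rose and 6 fell, or 2 and 7 after median-of-ratios scaling. The shares of all tested genes there were 31.4% and 20.6%, or 24.6% and 28.5% after this scaling. Against vehicle, where 17.2% of all tested genes rose and 20.8% fell, the single call was the p38 kinase MAPK14. It was lower by 0.27 (adjusted p = 0.0203, 0.0573 without MEL-6 replicate 1 and 0.0756 without vehicle replicate 2).

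MYC (chromosome 8, 128748315 to 128753680) had its lowest RNA level under R1881. It had 87.1, 88.9 and 92.6 RPKM in R1881 with MEL-6, 46.2, 46.6 and 49.1 RPKM in R1881, and 95.4, 92.4 and 90.2 RPKM in vehicle. The R1881 libraries lay far below all 6 others, and the other groups overlapped. MYC fell by 0.96 ± 0.048 under R1881 against vehicle (limma adjusted p = 1.05e-07) and rose by 0.91 ± 0.048 with MEL-6 against R1881 (adjusted p = 1.67e-07). The difference between R1881 with MEL-6 and vehicle was -0.05 (adjusted p = 0.448), with a 95% interval from -0.157 to 0.0568. Mean MYC in R1881 was 0.510 times that in vehicle, and mean MYC with MEL-6 was 1.89 times that in R1881. Both calls held in all 18 alternatives. The authors' deposited table marks MYC as significant in both of its p-value columns, headed DCC and MEL4, and FOSL2 in the first alone. The other 8 genes are marked in neither column of the authors' deposited table, whose test was not stated.

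**Figure D3:**
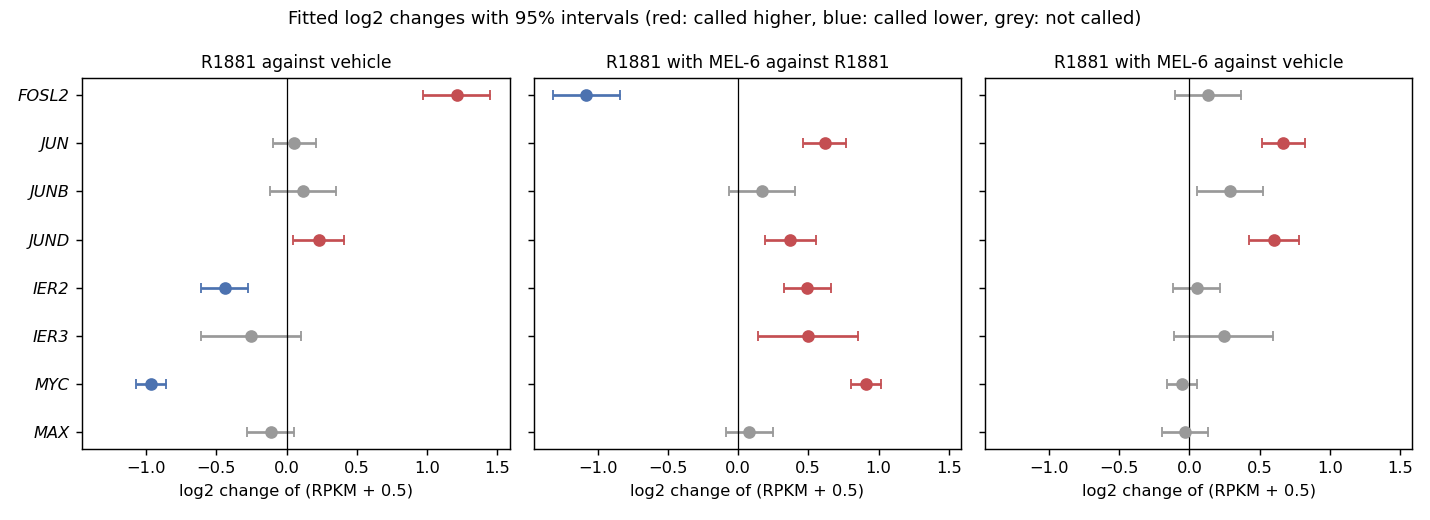
Log2 change of the 8 tested genes on the log2(RPKM + 0.5) scale with its 95% interval, in the 3 comparisons. MYC and IER2 lay below 0 for R1881 against vehicle and above 0 with MEL-6 against R1881, FOSL2 did the opposite, and JUN and JUND lay above 0 in both comparisons with MEL-6.

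MAX (chromosome 14, 65472892 to 65569227), the dimer partner that MYC needs to bind DNA, was not called in any comparison. It had 22.1, 18.2 and 19.0 RPKM in R1881 with MEL-6, 17.9, 18.3 and 19.7 RPKM in R1881, and 19.5, 20.2 and 20.8 RPKM in vehicle. The log2 difference was -0.11 for R1881 against vehicle (limma adjusted p = 0.248), 0.08 with MEL-6 against R1881 (adjusted p = 0.394) and -0.03 against vehicle (adjusted p = 0.771), and each sign turned under some alternative (0.0063 after median-of-ratios scaling in the first). FNTB, a farnesyltransferase subunit gene, overlaps MAX, and its reads cannot be told apart without strand. FNTB averaged 5.24 RPKM in R1881 with MEL-6, 6.04 RPKM in R1881 and 7.48 RPKM in vehicle. The ratio of MYC to MAX, per length, was 4.57 ± 0.550 in R1881 with MEL-6, 2.54 ± 0.0462 in R1881 and 4.61 ± 0.283 in vehicle (SD, n = 3 each). The R1881 ratios did not overlap with either other group, at the smallest exact permutation p that 3 against 3 allows (0.1, two-sided). R1881 with MEL-6 and vehicle overlapped (exact p = 0.8).

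Of 11 other genes of the MYC and MAX network, 10 were tested and MYCN was listed at 0 in every library. Under R1881 against vehicle 3 rose and 4 fell, or 5 and 3 after median-of-ratios scaling. Among all tested genes 14.5% rose and 31.3% fell, or 20.9% and 19.1% after this scaling. MXI1, which pairs with MAX and opposes MYC, was lowest under R1881, like MYC. It averaged 23.2 ± 2.12 RPKM in R1881 with MEL-6, 11.8 ± 0.438 RPKM in R1881 and 19.2 ± 0.923 RPKM in vehicle (SD, n = 3 each). It fell under R1881 by 0.68 ± 0.071 (limma adjusted p = 2.98e-05) and rose with MEL-6 against R1881 by 0.94 ± 0.071 (adjusted p = 2.19e-06). MNT, another MAX-binding repressor, averaged 9.86 ± 0.945 RPKM in R1881 with MEL-6, 7.60 ± 0.182 RPKM in R1881 and 7.02 ± 0.171 RPKM in vehicle, higher with MEL-6 by 0.35 against R1881 (adjusted p = 0.00229) and by 0.46 against vehicle (adjusted p = 0.000792). With MEL-6 against R1881, 4 of the 10 rose and 2 fell, or 4 and 4 after median-of-ratios scaling. The shares of all tested genes there were 31.4% and 20.6%, or 24.6% and 28.5% after this scaling. Against vehicle 3 of the 10 rose and 1 fell, beside 17.2% and 20.8% of all tested genes. Beside MNT, the calls against vehicle were MXI1 (adjusted p = 0.0151, and 0.0522 without vehicle replicate 1), the MAX-like factor MLX (adjusted p = 0.0406, lost in 10 of 18 alternatives) and, lower, MXD3 (adjusted p = 0.0178, and 0.0644 without vehicle replicate 3).

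All 10 listed genes for MYC stability and cofactors were tested, and none was called higher in any comparison without further scaling. Under R1881 against vehicle 2 fell, SKP2 and the ATPase gene RUVBL1, whose call was lost without R1881 replicate 2 (limma adjusted p = 0.0511) and after median-of-ratios scaling, where its log2 change was -0.080 (adjusted p = 0.259), against -0.20 without it. Median-of-ratios scaling gave 2 higher and 1 lower there, and the median of the list turned to 0.02, against -0.10 without it. The shares of all tested genes called higher and lower there were 14.5% and 31.3%, or 20.9% and 19.1% after this scaling. SKP2, a ubiquitin ligase subunit that acts on MYC and on cell cycle inhibitors, averaged 10.5 ± 1.11 RPKM in R1881 with MEL-6, 11.97 ± 0.631 RPKM in R1881 and 18.6 ± 0.306 RPKM in vehicle (SD, n = 3 each). Its log2 changes were -0.62 for R1881 (limma adjusted p = 9.9e-05) and -0.81 for R1881 with MEL-6 (adjusted p = 2.62e-05), both against vehicle. MYCBP, which encodes a MYC-binding protein, averaged 13.2 ± 1.07 RPKM in R1881 with MEL-6, 25.4 ± 0.943 RPKM in R1881 and 23.1 ± 1.07 RPKM in vehicle, and fell with MEL-6 against R1881 by 0.92 (adjusted p = 1.75e-06). With MEL-6, 3 of the 10 fell against R1881 and 4 against vehicle, beside 20.6% and 20.8% of all tested genes. Calls of higher, absent in this list, made up 31.4% and 17.2% of all tested genes in these comparisons.

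The 25 listed MYC-activated growth genes were all tested. Under R1881 against vehicle, the comparison in which MYC was lower, 1 rose and 15 fell, with a median log2 change of -0.23. There 14.5% of all tested genes rose and 31.3% fell, with a median of -0.12. Median-of-ratios scaling left 10 lower and 1 higher, with a median of -0.11. After it, 20.9% of all tested genes rose and 19.1% fell, with a median of -0.0095. NCL, which encodes nucleolin, averaged 330 ± 10.6 RPKM in R1881 with MEL-6, 355 ± 12.3 RPKM in R1881 and 474 ± 23.3 RPKM in vehicle (SD, n = 3 each). NOP58, a small nucleolar RNP component, averaged 42.1 ± 3.42 RPKM in R1881 with MEL-6, 53.4 ± 2.88 RPKM in R1881 and 73.9 ± 6.97 RPKM in vehicle. The one rise was ODC1, the first enzyme of polyamine synthesis, with 214 ± 2.38 RPKM in R1881 with MEL-6, 614 ± 9.27 RPKM in R1881 and 225 ± 3.67 RPKM in vehicle.

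With MEL-6 against R1881, the comparison in which MYC was higher, 4 of these 25 rose and 9 fell, with a median of -0.12. There 31.4% of all tested genes rose and 20.6% fell, with a median of 0.07. After median-of-ratios scaling 2 rose and 15 fell, where 24.6% of all tested genes rose and 28.5% fell. ODC1 fell by 1.52 ± 0.044 (limma adjusted p = 2.39e-09) and LDHA, the lactate dehydrogenase gene, by 0.94 ± 0.050 (adjusted p = 1.7e-07). GNL3, which encodes nucleostemin, rose by 0.57 ± 0.075 (adjusted p = 0.000122). The other rises were HSPD1 by 0.31 (adjusted p = 0.00292), CAD by 0.30 (0.0252, lost in 5 of 18 alternatives) and NPM1 by 0.22 (0.00461). NPM1 was named after its values were seen, and its call was lost after median-of-ratios scaling (0.0717). Under R1881 against vehicle CAD had fallen by 0.55, HSPD1 by 0.32, NPM1 by 0.23 and GNL3 by 0.22, the last call lost in 9 of 18 alternatives. With MEL-6 against vehicle, where MYC was called neither higher nor lower, 1 of the 25 rose and 12 fell, with a median of -0.28. There 17.2% of all tested genes rose and 20.8% fell, with a median of -0.012. LDHA had 103 ± 3.92 RPKM in R1881 with MEL-6 and 204 ± 8.15 RPKM in vehicle, and TFRC, the transferrin receptor gene, had 69.5 ± 4.82 RPKM in R1881 with MEL-6 and 123 ± 7.42 RPKM in vehicle. The log2 changes were -0.97 for LDHA (adjusted p = 4.4e-07) and -0.82 for TFRC (adjusted p = 9.35e-06). The part of MYC in the changes of this list was not tested.

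**Figure D4:**
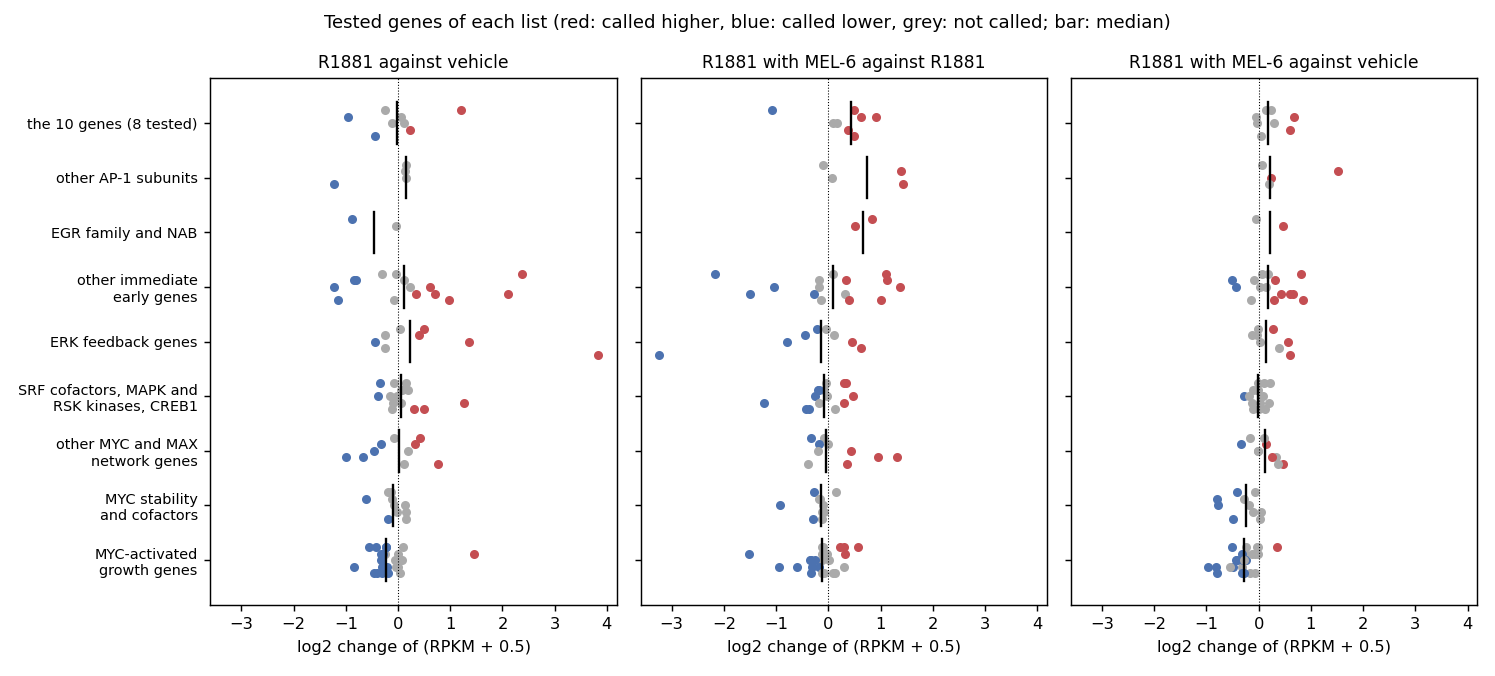
Log2 change of every tested gene of the 8 gene lists, in a panel for each comparison, one point a gene, with the 8 tested genes of this account in the top row and the median of each row as a bar. The MYC-activated growth genes had a median of -0.23 under R1881, -0.12 when MEL-6 was added, and -0.28 when both agents were set against vehicle. All tested genes had medians of -0.12, 0.07 and -0.012 in the same comparisons.

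The order of the 10 genes by level was largely shared. In R1881 with MEL-6 it ran MYC, JUND, IER2, JUN, MAX, JUNB, FOSL2, IER3, FOS and EGR1, where IER2 and JUN overlapped, as did FOS and EGR1. In R1881 JUND came first and overlapped with MYC, MAX overlapped with IER2 and IER2 with JUN, and FOSL2 stood above JUNB, which it did in neither other group. In vehicle the order was MYC, JUND, IER2, MAX, JUN, JUNB, FOSL2, IER3, EGR1 and FOS, and only the last pair overlapped. Patterns were compared by distance between the 3 group means on the centred log2 scale, over 8971 candidates. These were tested genes outside the 10 with a mean of 5 RPKM or more over all libraries. Closest to MYC were ABLIM1, which encodes an actin-binding LIM protein, and SNORA18, a small nucleolar RNA. ABLIM1 averaged 19.0 RPKM in R1881 with MEL-6, 9.79 RPKM in R1881 and 19.3 RPKM in vehicle, at a distance of 0.0192, and SNORA18 lay at 0.0224. The closest to the low FOS were ZNRF2 and USF2, and to EGR1 C2orf24 and C7orf20, and these 2 profiles rest on few reads.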

How the data were processed

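Polyadenylated RNA was sequenced from 9 LNCaP libraries, 3 per group, and groups came from the sample titles. The deposited table gave 1 value per gene and library. The authors' values were RPKM. GRCh37 (hg19) and CASAVA 1.8 are named in the submitters' processing notes, with no role given. The sheet is named for counts, but the deposited values had decimals and sums of 350381 to 365815 per library. Strand, annotation and read totals are not given in the sources used here. Depth was estimated from steps between low values and GENCODE exon lengths, as an estimate. Of 1621 low genes tried, 725 (44.7%) fitted whole read numbers.

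Values were tested as log2(RPKM + 0.5) with limma 3.58.1 in R 4.3.3, with an intensity trend, after a filter of 0.5 RPKM in 3 libraries (13295 genes). All 9 libraries entered one model of group means with residual df 6 and prior df 4.31. P-values were two-sided and were adjusted by Benjamini-Hochberg over all tested genes. The procedure was tested on simulated data. The genes, lists and rules were chosen with earlier results of these data known. The rule for naming list genes took up to 3 called genes per direction, list and comparison by size of change, at 5 RPKM or more in the higher group, and the text names part of these. Replicate numbers were not taken as pairs. Alternatives covered pseudocount, filter, scaling, intensity trend, the libraries fitted, a replicate block and leaving out each library. Promoter windows and motif counts came from RefSeq on GRCh38.p14.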

Additional observations from a re-analysis of the deposited data

How the results depend on the processing

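Over 24 results (8 tested genes in 3 comparisons) and 18 alternatives, 406 of 432 values kept direction and side of the threshold, 13 lost a call, 6 gained one and 7 changed sign. No called value changed sign. Those that did were uncalled: JUN under R1881 against vehicle was -0.0077 without R1881 replicate 3 and ran to 0.095 over the libraries left out. MAX was 0.0063 in that comparison and -0.018 with MEL-6 against R1881 after median-of-ratios scaling, and ran from -0.0020 (without MEL-6 replicate 1) to 0.14 in the second over the libraries left out. MAX with MEL-6 against vehicle was 0.015 after upper-quartile scaling and ran from -0.11 to 0.025 (without MEL-6 replicate 2) over the libraries left out, and IER2 there ran from -0.020 (without MEL-6 replicate 3) to 0.12. The cause was not tested. Of the 8 tested genes, 3 to 4, 5 to 6 and 2 to 3 were called across alternatives for R1881 against vehicle, MEL-6 against R1881 and MEL-6 against vehicle. Leaving out single libraries, the calls over all genes ran from 4990 to 6609, 5969 to 6915 and 4062 to 4865. Of 136 calls of list genes, 101 held in every alternative, 35 were lost in some, and 0 changed direction. Median-of-ratios scaling made 47.7% of the calls under R1881 against vehicle lower (68.3% without), and 53.7% with MEL-6 against R1881 (39.6% without), while upper-quartile scaling gave 44.1% with MEL-6 against vehicle (54.7% without).

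With a replicate block, 4, 6 and 2 of the tested genes were called in those comparisons, as without it, and 5648, 6557 and 4503 of all genes. Of 9 pairs of samples with the same number, 2 had a correlation of deviations over 0.1 (range -0.197 to 0.198). Pairs with different numbers reached 0.187, so these correlations cannot tell whether samples with the same number were paired. FOS and EGR1 rest on few reads, with 3.54 to 23.0 estimated reads a library for FOS. For EGR1 the estimate was 4 to 22 from steps and 3.52 to 19.4 from length and depth.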
